A study of Mus musculus with 22 samples.

Results

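The genes examined here encode the constitutive proteasome, and they were chosen by name. Every gene symbol made of Psma, Psmb, Psmc or Psmd and a number was taken, the interferon-inducible subunits Psmb8, Psmb9 and Psmb10 were set aside, and a symbol was kept when it lay above 1 CPM, read counts scaled to the size of the library, in at least 5 of the 22 mice. Of 52526 symbols listed, 36 matched the pattern without the 3 inducible subunits and 34 were kept, out of 15138 genes that passed the same limit. Psma8, above the floor in 1 mouse with 1.44 CPM, and Psmb11, above it in 0 mice, were dropped, and the 34 genes kept were above the floor in all 22 mice. The choice of members used only this lower limit and no comparison between groups. The RNA came from the left mammary gland number 4 of female C57BL/6J mice aged 7 to 8 weeks, into which EO771 cells had been injected. EO771 is a mammary cancer line from the same mouse strain, here carrying firefly luciferase. The design crossed activity, with a running wheel or only the wheel's hub in the cage for 2 weeks before engraftment, with the liposome, PBS or clodronate, injected before and at engraftment. There were 6 control PBS, 6 wheel PBS, 5 control clodronate and 5 wheel clodronate mice, all engrafted and all sampled 24 h after engraftment, so that the data hold no mouse without cancer cells or without liposomes. Clodronate liposomes kill phagocytes that take them up and are used to deplete macrophages.

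The proteasome is the cell's main protease for proteins tagged with ubiquitin. Its core particle is a barrel of stacked rings: the outer rings, built from the Psma subunits, gate the entrance, and the inner rings, built from the Psmb subunits, hold the cutting sites. The cap is built from a ring of Psmc ATPases, which unfold the substrate and thread it into the barrel, and from Psmd subunits, which bind ubiquitin, remove it and hold the parts together. Because the subunits are needed in fixed proportions, cells make them in a coordinated way, and the transcription factor Nfe2l1 raises their transcription together when proteolysis falls short. Immune cells, and other cells exposed to interferon, replace the catalytic Psmb5, Psmb6 and Psmb7 by Psmb8, Psmb9 and Psmb10 and so build the immunoproteasome.

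Libraries held 13256467 to 20484578 reads (median 16293026), of which 57.2 to 64.5% were assigned to genes. The wheel clodronate libraries had 57.2 to 58.5% assigned, against 58.3 to 64.5% in the other groups, and the part of this share in the results was not tested. All 8 adipocyte markers and 7 of 8 mammary epithelial markers were above the floor in every mouse. Macrophage markers, 10 genes, were above the floor in every mouse of every group, with summed levels of 221 to 514 CPM in control PBS, 227 to 458 in wheel PBS, 219 to 347 in control clodronate and 201 to 461 in wheel clodronate mice. Skeletal muscle markers ranged in sum from 22.0 to 24967 CPM. In 5 mice, control PBS 2, wheel PBS 3 and wheel clodronate 3, 4 and 5, the mean of 12 lymphocyte markers was 4.31 to 5.75 on the log2(CPM + 1) scale, against 1.00 to 1.41 in the other 17. These lymphocyte-rich mice were unevenly spread over the groups, so the counts for each pair of groups are also given without them. In bulk tissue, fewer cells of a type and less RNA per cell cannot be told apart.

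To show what these genes share beside their names, their promoters were read from RefSeq (GRCm38.p6, the build named in the submitters' processing notes being GRCm38), from 250 bases before to 50 bases after the annotated start, for the 28 of 34 genes with an entry. Letters were searched on both strands. The ETS site CCGGAAG was in 10 of the 28 (35.7%), against 9.93% of the 27025 genes in the table. The nuclear respiratory factor 1 site was in 6 (21.4%, against 5.19%). The core of the antioxidant response element, TGACNNNGC, the kind of element that Nfe2l1 binds, was in 5 (17.9%, against 14.0%), and the CCAAT box was in 11 (39.3%, against 41.1%). Both of the first 2 motifs were thus held by a larger share of proteasome promoters than of all promoters, and the other 2 by a similar share. A match of letters is not a bound site. The 250 bases before the start are printed for 4 genes, with the matched letters in capitals: Psmb5 and Psmc6 as holders of the antioxidant response element core, Psmc6 also for the ETS site, and Psmd14 and Psmc5 for the nuclear respiratory factor 1 site, in Psmd14 beside a CCAAT box read on the opposite strand. These 4 are among the genes described mouse by mouse below. The sequences run 5′ to 3′ on the strand of the gene. The antioxidant response element core of Psmc6 and the nuclear respiratory factor 1 sites of Psmd14 and Psmc5 were also matched on the opposite strand. Motifs matched there are printed as their reverse complement.
Psmb5, chr14:54617996-54618245, - strand: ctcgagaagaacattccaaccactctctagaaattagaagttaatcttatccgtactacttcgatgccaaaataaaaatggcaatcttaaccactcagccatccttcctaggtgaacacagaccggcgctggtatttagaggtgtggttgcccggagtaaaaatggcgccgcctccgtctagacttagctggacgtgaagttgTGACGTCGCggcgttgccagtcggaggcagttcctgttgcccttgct
Psmc6, chr14:45329574-45329823, + strand: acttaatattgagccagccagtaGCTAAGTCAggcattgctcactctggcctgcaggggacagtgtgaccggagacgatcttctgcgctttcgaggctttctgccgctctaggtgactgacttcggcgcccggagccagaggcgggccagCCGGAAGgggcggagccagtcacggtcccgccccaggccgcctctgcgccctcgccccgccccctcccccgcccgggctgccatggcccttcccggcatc
Psmd14, chr2:61711444-61711693, + strand: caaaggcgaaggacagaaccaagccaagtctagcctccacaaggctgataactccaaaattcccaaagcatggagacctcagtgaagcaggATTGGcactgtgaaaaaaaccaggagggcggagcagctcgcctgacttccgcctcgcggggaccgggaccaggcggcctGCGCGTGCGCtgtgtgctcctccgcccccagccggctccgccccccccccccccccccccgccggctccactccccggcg
Psmc5, chr11:106255935-106256184, + strand: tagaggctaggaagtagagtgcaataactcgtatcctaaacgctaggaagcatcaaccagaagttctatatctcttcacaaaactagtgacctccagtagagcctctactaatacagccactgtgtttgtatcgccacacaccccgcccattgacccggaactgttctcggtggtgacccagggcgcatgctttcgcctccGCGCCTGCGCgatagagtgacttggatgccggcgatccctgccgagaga

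The mean level over the 22 mice spanned 12.8 CPM (Psma5) to 193 CPM (Psma7). The libraries were made with QuantSeq, which primes at the poly(A) tail and reads each transcript once at its 3′ end, so CPM was not divided by gene length and levels of different genes are compared on that scale. The median member, at 65.6 CPM, lay above most tested genes, whose median was 10.2 CPM. The median SD of the members between mice was 0.29 on the log2(CPM + 1) scale. It was 0.39 over the 6351 genes with mean levels between those of the lowest and highest member. Those genes had a lower median level, 29.2 CPM, so they are not matched to the members in level. The part of level in this difference was not tested. The most abundant were Psma7, an outer-ring subunit, and Psmd4, a ubiquitin receptor of the cap (166 CPM), followed by Psmd1 (156 CPM) and the ATPase Psmc1 (153 CPM). The least abundant were Psma5 and Psmb5 (12.8 CPM each), Psmd9 (14.3 CPM), Psmd10 (14.7 CPM) and Psmd5 (20.3 CPM). The last 3 are chaperones that hold parts of the cap's base during assembly and leave before it is finished, and together they made the lowest group. In this order of 34 genes, 33 of 33 neighbouring pairs differed by less than the SD of their difference over mice. Subunits that enter the particle in equal copy did not have equal 3′-end counts: the outer ring ran from 12.8 to 193 CPM, the ATPases from 39.7 to 153 CPM and the 8 subunits of the lid, the outer part of the cap, from 36.6 to 120 CPM.

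**Figure D1:**
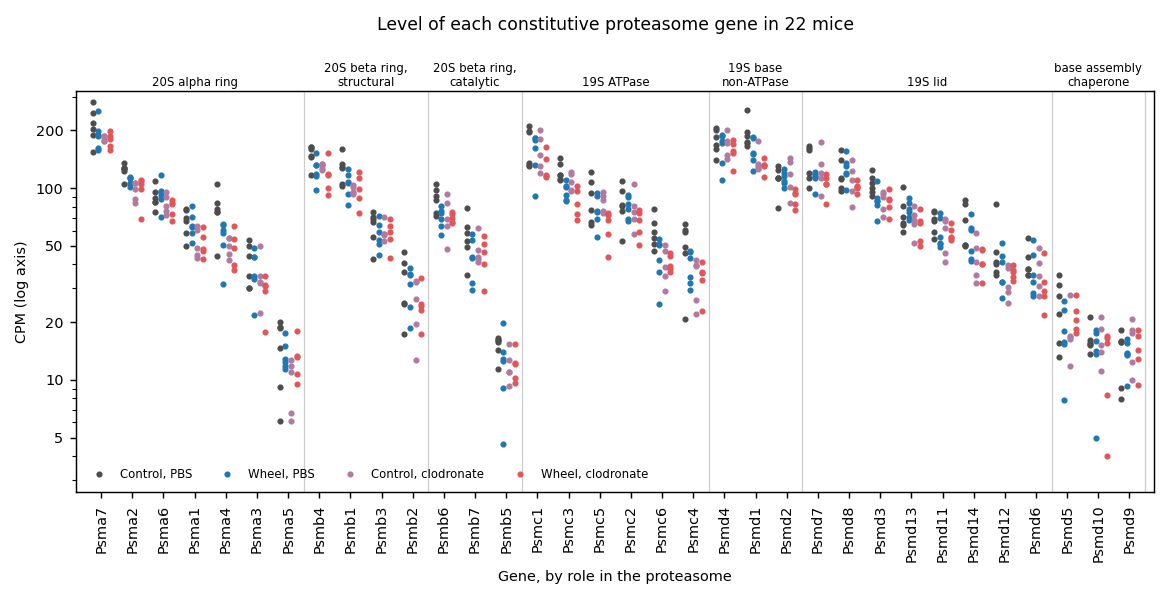
CPM (log axis) of the 34 genes in each of 22 mice, grouped by role and ordered by mean level within a role, with 1 point per mouse coloured by group. Psma7 is the highest (mean 193 CPM) and Psma5 and Psmb5 the lowest (12.8 CPM), and the 4 groups overlap for almost every gene.

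Some of these levels depend on how reads were placed. Reads that mapped to several places were kept apart, 16.6 to 19.9% of each library, and 11 of the 34 genes have at least 100 of the last 400 bases of a transcript in common with another gene, at 97% identity or more. For Psma5 the stretch shared with the pseudogene Gm8394 covered 95.8% of the 3′ end and for Psmb5 that shared with Gm3375 covered 81.8%. These are the 2 least abundant genes. Psmd11 (A730017L22Rik, 100%), Psma4 (Gm6542, 93.5%), Psmb3 (Gm4950, 84.5%), Psma3 (Gm13835, 72.5%), Psmd2 (Gm5422, 57.0%) and Psmc1 (AC110212.1, 42%) also have such copies. Their levels are uncertain to that extent. Psmd2 (108 CPM) and Psmc1 (153 CPM) are among the more abundant members. Psmd1 shares its end with Gm21972 on the same strand, and Psmc3 and Psmb7 overlap Slc39a13 and Nek6 on the opposite strand. The sources used here do not give the counting tool or its strand setting. How far shared sequence set these levels was not tested.

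Between groups, no proteasome gene passed the test, limma on log2(CPM + 1) with Benjamini-Hochberg adjustment over all 15138 genes and a threshold of 0.05. The differences were small, and most genes were on the lower side with running and with clodronate, in some comparisons beside a shift of the whole table in the same direction. In wheel against control mice given PBS liposomes, 0 of 34 members passed, as did 0% of all genes in either direction. The same held in control mice for clodronate against PBS (0 of 34, and 0% of genes in either direction). In wheel against control mice given clodronate, 0 members passed beside 0.00661% of genes higher and 0% lower, and for clodronate against PBS in wheel mice the figures were the same. The interaction of activity and liposome gave 0 members and 0% of genes, and the effect of running averaged over liposomes likewise. Averaged over activity, clodronate gave 0 members, beside 0.205% of genes lower and 0% higher, and there the lowest adjusted p of a member was 0.112 (Psmd1). The comparisons share groups of mice and are therefore not independent of each other. The p-values measure the spread between mice of one experiment.

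Wheel running with PBS liposomes went with lower levels of 29 of the 34 genes, where 63.8% of all genes were lower. The median difference, wheel minus control, was −0.19 for the members and −0.085 for all genes on the log2(CPM + 1) scale. At an unadjusted p under 0.05, 7 members were lower (4.12% of all genes) and 0 higher (0.799% of all genes). They were the ATPases Psmc3 and Psmc6, the outer-ring Psma4, the inner-ring Psmb4 and Psmb6, the cap scaffold Psmd1 and the lid subunit Psmd3. All 6 ATPases and all 3 catalytic subunits were on the lower side, with medians of −0.24 and −0.37. Scaling moved these counts. After upper-quartile scaling of the mice, 25 of 34 were lower (50.2% of all genes) and the median was −0.091 (−0.0012 for all genes). At an unadjusted p under 0.05, 1 was lower (273 of all genes). Without the lymphocyte-rich mice 27 were lower (62.2% of all genes), 6 of them at an unadjusted p under 0.05 (506 of all genes). Single mice moved the count of 7 too: it was 2 without control PBS mouse 1, 3 without wheel PBS mouse 1, 4 without control PBS mouse 6 and 11 without control PBS mouse 5. Over all genes the count of 623 lower became 482, 615, 501 and 768 in the same order.

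Among mice given clodronate, wheel running was followed by a mixed pattern: 23 of 34 genes were lower and the rest higher, with 49.3% of all genes lower. The members' median was −0.056 and that of all genes 0.0045. Those lower at an unadjusted p under 0.05 were 3, Psmc3, Psmd2 and Psmc5 (3.40% of all genes), and 0 were higher (7.04% of all genes). The catalytic subunits lay close to 0, between −0.11 and 0.0074. The direction of the median depended on scaling: relative to the reads assigned to genes, 17 of 34 were lower and the median was 0.015, against 42.0% of all genes lower. Leaving out the lymphocyte-rich mice, 3 of the 5 wheel clodronate mice among them, gave 28 lower genes and a median of −0.18. Of all genes 55.8% were then lower, with a median of −0.042. The count of 3 fell to 1 when scaled to assigned reads and to 1 without wheel clodronate mouse 4. Over all genes the count of 514 lower became 333 and 299 in the same order. The background also turned on single mice: the 1 gene called over the whole table became 226 higher and 10 lower without wheel clodronate mouse 2, and 115 higher and 3 lower without wheel clodronate mouse 1, with 0 members called in either.

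In control mice, clodronate went with lower levels of 32 of 34 genes (65.4% of all genes), with a median of −0.23 against −0.10 for all genes. At an unadjusted p under 0.05, 11 members were lower, where 6.08% of all genes were, and 0 were higher (0.905% of all genes). They came from every part of the particle except the assembly chaperones: Psma1, Psma2 and Psma4 of the outer ring, Psmb1 and Psmb6 of the inner ring, the ATPases Psmc4 and Psmc6, Psmd1, and the lid subunits Psmd3, Psmd12 and Psmd14. In 0 members were the groups free of overlap, beside 0.575% of all genes lower and 0.0595% higher. Upper-quartile scaling left 24 of 34 lower (51.1% of all genes), 5 at an unadjusted p under 0.05 (386 of all genes). The median was then −0.11 (−0.0069 for all genes). Without the lymphocyte-rich mice 32 were lower (64.7% of all genes), 9 of them at an unadjusted p under 0.05 (898 of all genes). The count of 11 became 5 without control PBS mouse 1 and 7 without control clodronate mouse 4. Over all genes the count of 921 lower became 699 and 1104. Without control clodronate mouse 1, 37 of all genes passed as lower and 1 as higher, and 0 members.

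In wheel mice, clodronate went with lower levels of 27 of 34 genes, while all genes were evenly divided (49.9% lower). The median was −0.16 for the members and 0.00020 for all genes. Psmd2, Psma1 and the lid subunit Psmd13, 3 in all, were lower at an unadjusted p under 0.05 (5.54% of all genes) and 0 were higher (6.08%). The outer ring was lower for 7 of 7 genes and the ATPases for 6 of 6, whereas the 3 catalytic subunits were higher by 0.0033 to 0.064. Without the lymphocyte-rich mice 30 were lower (58.9% of all genes), 5 of them at an unadjusted p under 0.05 (880 of all genes). The median of all genes was then −0.079. Relative to the reads assigned to genes, 23 were lower (43.1% of all genes), 0 of them at that limit (567 of all genes). The median was then −0.090 (0.058 for all genes). The count of 3 became 0 without wheel clodronate mouse 1, 1 without wheel clodronate mouse 2 or wheel PBS mouse 4, and 6 without wheel PBS mouse 1. Over all genes the count of 838 lower became 830, 844, 920 and 728 in the same order. Of all genes, 27 passed as higher and 1 as lower without wheel clodronate mouse 1, and 46 and 5 without wheel clodronate mouse 2, with 0 members among them. Averaged over activity, 33 of 34 were lower with clodronate (57.4% of all genes), 8 at an unadjusted p under 0.05 (8.30%) and 0 higher at that limit (2.13%), and Psmd9 was the exception. Scaling to the reads assigned to genes gave 31 lower (50.3% of all genes), 5 at that limit (893 of all genes) and a median of −0.13. The count of 8 became 5 without control PBS mouse 1, 13 without wheel PBS mouse 1 and 16 without control PBS mouse 5. Over all genes the count of 1256 lower became 1104, 1153 and 1324. Averaged over liposomes, 32 of 34 were lower with running (57.3% of all genes), 4 at an unadjusted p under 0.05 (4.16%) and 0 higher at that limit (3.93%). With reads assigned to genes as the scale, 27 were lower (49.4% of all genes), 1 at that limit (408 of all genes), with a median of −0.088. Without control PBS mouse 5 the count of 4 became 8, where that of all genes went from 629 to 699. For the interaction, 12 were lower and 22 higher, with 40.8% of all genes lower, and 0 had an unadjusted p under 0.05 (6.35% of all genes higher, 1.23% lower). The members' median interaction was 0.080 against 0.091 for all genes, and upper-quartile scaling gave −0.038 with 18 of 34 lower.

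**Figure D2:**
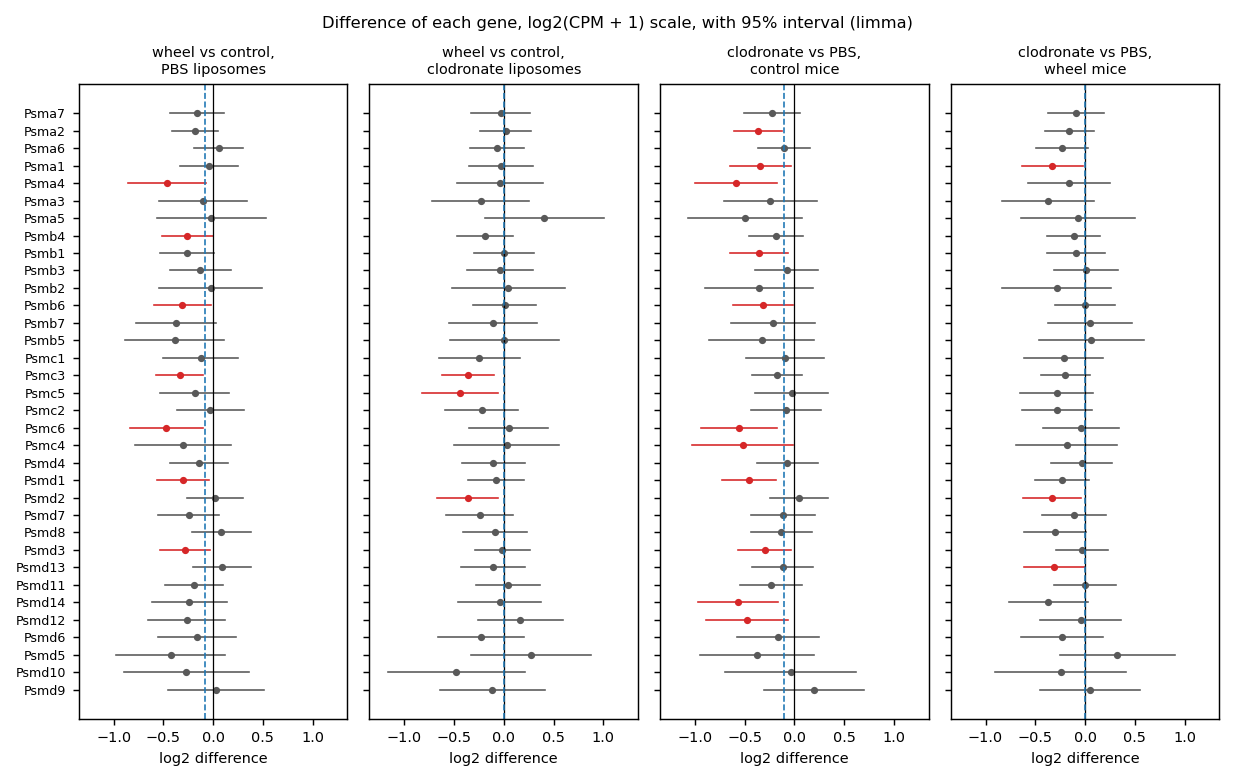
Difference of each of the 34 genes in 4 comparisons on the log2(CPM + 1) scale, as the limma estimate with its 95% interval, unadjusted p under 0.05 in red. The dashed line is the median of all 15138 genes. Most points lie left of 0 in all 4 panels. The dashed line does too for running at PBS and for clodronate in control mice. It lies at 0.0045 for running at clodronate and at 0.00020 for clodronate in wheel mice. None of the 34 genes passed the adjusted threshold.

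The catalytic subunits carry out the cutting. Psmb5 holds the chymotrypsin-like site, the main target of proteasome inhibitors. It was measured at 11.5, 15.9 and 16.6 CPM (lowest, median and highest) in control PBS mice and at 4.62, 12.7 and 19.8 CPM in wheel PBS mice. Control clodronate mice had 9.32, 15.4, 10.95, 11.0004 and 12.7 CPM, and wheel clodronate mice 12.2, 9.66, 15.4, 10.2 and 12.1 CPM. The wheel PBS group spanned all the other values, with wheel PBS mouse 5 lowest of the 22. The difference between wheel and control at PBS was −0.39 (SE 0.24, adjusted p = 0.987 by limma). Psmb6, with the caspase-like site, had 71.3, 89.0 and 105 CPM in control PBS and 57.2, 71.7 and 81.1 CPM in wheel PBS mice. It stood at 93.1, 83.8, 68.8, 63.2 and 48.2 CPM in control clodronate and at 66.9, 66.1, 74.7, 69.5 and 73.1 CPM in wheel clodronate mice. All groups overlapped, and the control PBS group reached highest. Wheel minus control at PBS was −0.31 (SE 0.14, unadjusted p = 0.0364, adjusted p = 0.987, limma), and at clodronate it was 0.0074 (95% interval −0.31 to 0.32). Psmb7, with the trypsin-like site, had 35.3, 55.7 and 78.5 CPM in control PBS and 29.5, 43.4 and 57.5 CPM in wheel PBS mice. With clodronate its values were 41.2, 61.8, 43.9, 42.8 and 47.4 CPM in control and 40.0, 29.2, 56.3, 51.0 and 46.2 CPM in wheel mice. None of its groups stood apart, and wheel minus control at PBS was −0.37 (95% interval −0.77 to 0.03).

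Of the outer ring, Psma2 had the smallest p for clodronate in control mice. Its levels were 105, 126 and 135 CPM in control PBS and 101, 109 and 114 CPM in wheel PBS mice. In control clodronate mice the values were 83.2, 106, 106, 98.9 and 87.8 CPM, and wheel clodronate mice 98.6, 69.3, 109, 110 and 105 CPM. Only control PBS mouse 4 (105 CPM) fell within the range of the control clodronate mice. Clodronate minus PBS in control mice was −0.36 (SE 0.12, unadjusted p = 0.00507, adjusted p = 0.505, limma), and −0.25 after upper-quartile scaling. Psma1, another subunit of this ring, had 49.7, 68.7 and 77.9 CPM in control PBS and 51.7, 63.0 and 80.4 CPM in wheel PBS mice. It was at 45.0, 48.9, 60.5, 43.4 and 63.7 CPM in control clodronate and at 42.7, 46.9, 48.2, 55.6 and 62.6 CPM in wheel clodronate mice. The groups overlapped in both activities, and the clodronate differences were alike in size, −0.34 (SE 0.15) in control and −0.33 (SE 0.15) in wheel mice. Psma6 varied least of all members (SD 0.20 on the log2 scale). Its levels were 75.2, 86.8 and 109 CPM in control PBS, 71.1, 93.8 and 117 CPM in wheel PBS mice. In control clodronate mice they were 94.998, 81.0, 89.98, 72.6 and 76.2 CPM, and in wheel clodronate mice 67.7, 86.7, 73.2, 83.7 and 82.8 CPM. All 4 groups overlapped, but no wheel clodronate mouse reached the median of either PBS group. For wheel against control at PBS the 95% interval was −0.19 to 0.30. For clodronate against PBS averaged over activity it was −0.35 to 0.01.

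The most and the least abundant genes were both in this ring. Psma7 had 155, 211 and 281 CPM in control PBS and 158, 189 and 252 CPM in wheel PBS mice. The control clodronate mice had 177, 187, 187, 176 and 182 CPM, and wheel clodronate mice 167, 181, 186, 158 and 199 CPM. The control clodronate mice were the most alike, and their values lay inside the range of every other group. The clodronate difference in control mice was −0.22 (95% interval −0.50 to 0.06). Psma5 had 6.11, 16.7 and 20.1 CPM in control PBS and 11.3, 12.6 and 17.5 CPM in wheel PBS mice. It was at 6.10, 10.97, 6.70, 12.7 and 11.8 CPM in control clodronate and at 9.505, 10.7, 13.1, 13.3 and 17.9 CPM in wheel clodronate mice. Control PBS mice spanned a wider range than the other groups, and all groups overlapped. For wheel against control at clodronate Psma5 had the largest upward difference of any member in that comparison, 0.41 (SE 0.29, adjusted p = 0.693, limma).

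Among the ATPases of the cap, Psmc3 was lower in wheel mice with either liposome. Its tail docks into the outer ring and helps to open the gate. In control PBS mice its levels were 110.9, 117 and 144 CPM (lowest, median and highest), and in wheel PBS mice 85.7, 96.9 and 110.6 CPM. Every wheel PBS mouse lay below every control PBS mouse, though the closest pair was nearly equal. Psmc3 was the only member whose groups did not overlap here, beside 0.218% of all genes in that direction and 0.0462% in the other. Control clodronate mice had 121, 118, 96.3, 97.3 and 108 CPM and wheel clodronate mice 73.0, 96.5, 103, 68.6 and 82.6 CPM, and there 2 wheel mice reached into the control range. Wheel minus control was −0.34 at PBS (SE 0.12, unadjusted p = 0.00786, adjusted p = 0.987, limma) and −0.36 at clodronate (SE 0.13, unadjusted p = 0.00911, adjusted p = 0.281). Averaged over liposomes it was −0.35 (SE 0.09, unadjusted p = 0.000476, adjusted p = 0.501), with a 95% interval of −0.52 to −0.17. This was the smallest unadjusted p of a member in any of the 7 comparisons. The average kept its direction under each scaling, at −0.31 with upper quartiles.

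Psmc5, another ATPase, had 63.8, 85.7 and 122 CPM in control PBS and 55.8, 75.4 and 94.4 CPM in wheel PBS mice, which overlapped widely. In control clodronate mice it had 95.9, 91.0, 76.0, 74.22 and 86.5 CPM, and in wheel clodronate mice 68.1, 43.5, 74.19, 57.3 and 72.1 CPM. All 5 wheel clodronate mice lay below all 5 control clodronate mice, with the closest pair nearly equal, and no other member was separated in this comparison (0.601% of all genes were, in that direction, and 0.667% in the other). Wheel minus control at clodronate was −0.44 (SE 0.18, unadjusted p = 0.0255, adjusted p = 0.382, limma). Psmc6 was highest in control PBS mice, at 46.9, 56.8 and 77.5 CPM, against 24.8, 46.5 and 54.4 CPM in wheel PBS mice. In control clodronate mice the values were 39.0, 50.6, 46.8, 34.6 and 29.0 CPM and wheel clodronate mice 39.4, 44.2, 45.9, 36.7 and 37.8 CPM. The 3 other groups had similar levels and all but the wheel clodronate mice overlapped with control PBS. Running at PBS gave −0.47 (SE 0.18, unadjusted p = 0.0138, adjusted p = 0.987, limma) and clodronate in control mice −0.56 (SE 0.18, unadjusted p = 0.00594, adjusted p = 0.525). The interaction was 0.52 (SE 0.26, unadjusted p = 0.0592, adjusted p = 0.671), the smallest p of a member for that term.

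Psmd1 and Psmd2 are the large scaffolds of the cap's base, and Psmd2 also docks the shuttle proteins that bring ubiquitin-tagged substrates. Psmd1 had 166, 181 and 254 CPM in control PBS and 122, 151 and 184 CPM in wheel PBS mice. The control clodronate mice had 126, 177, 134, 127 and 130 CPM, and wheel clodronate mice 115, 132, 144, 132 and 131 CPM. In control mice, clodronate mice lay below all PBS mice with the exception of mouse 2 at 177 CPM. Clodronate minus PBS was −0.46 in control mice (SE 0.13, unadjusted p = 0.00188, adjusted p = 0.427, limma), −0.24 in wheel mice (SE 0.13) and −0.35 averaged (SE 0.09, unadjusted p = 0.00104, adjusted p = 0.112), or −0.29 averaged with upper-quartile scaling. Psmd2 showed another order of groups. Its levels were 78.9, 113 and 131 CPM in control PBS and 99.9, 112 and 126 CPM in wheel PBS mice. Control clodronate mice had 101, 144, 137, 83.4 and 119 CPM and wheel clodronate mice 83.1, 94.2, 93.5, 76.8 and 98.9 CPM. All 5 wheel clodronate mice lay below all 6 wheel PBS mice, the only member separated there (0.912% of all genes, in that direction, and 0.35% in the other). Clodronate minus PBS was −0.33 in wheel mice (SE 0.14, unadjusted p = 0.0267, adjusted p = 0.357, limma) and 0.05 in control mice (95% interval −0.24 to 0.34). The interaction was −0.38 (SE 0.20, unadjusted p = 0.0677, adjusted p = 0.688). Psmd2 levels were 76.8 to 115 CPM in the 5 lymphocyte-rich mice and 78.9 to 144 CPM in the other 17, and the part of these mice in the difference was not tested beyond the counts without them.

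Psmd4 has ubiquitin-interacting motifs with which the cap catches its substrates. It had 140, 176 and 207 CPM in control PBS and 110, 174 and 189 CPM in wheel PBS mice. In control clodronate mice the values were 200, 175, 149, 172 and 142 CPM and wheel clodronate mice 152, 157, 179, 123 and 169 CPM. The groups overlapped throughout, and clodronate minus PBS in wheel mice was −0.03 (95% interval −0.34 to 0.27). Psmd14, the metalloprotease of the lid that removes ubiquitin chains before a substrate enters, had 50.2, 59.5 and 86.8 CPM in control PBS and 41.7, 53.7 and 73.1 CPM in wheel PBS mice. Its levels were 35.3, 58.5, 49.0, 32.1 and 41.4 CPM in control clodronate and 31.8, 48.0, 47.6, 40.0 and 40.2 CPM in wheel clodronate mice. Wheel clodronate mice were all below the lowest control PBS mouse, but within either activity the liposome groups overlapped. Clodronate minus PBS was −0.47 averaged over activity (SE 0.14, unadjusted p = 0.00231, adjusted p = 0.163, limma), the largest averaged clodronate difference among the members, and −0.41 with upper-quartile scaling.

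Psmd10 and Psmd5, 2 of the 3 assembly chaperones, varied most from mouse to mouse. Psmd10, also called gankyrin, which binds an ATPase of the cap and is known as an oncoprotein in liver, had the largest SD, 0.54 on the log2 scale. It had 13.7, 15.5 and 21.2 CPM in control PBS and 4.98, 15.1 and 18.3 CPM in wheel PBS mice. The control clodronate mice had 18.5, 14.0, 11.2, 15.2 and 21.2 CPM and wheel clodronate mice 3.99, 8.38, 16.9, 16.5 and 15.6 CPM. A few single mice, all of them wheel mice, were low, and the other mice of those groups lay in the control range. Wheel minus control averaged over liposomes was −0.37 (95% interval −0.84 to 0.09). Psmd5 had 13.2, 24.7 and 35.1 CPM in control PBS and 7.89, 16.9 and 25.9 CPM in wheel PBS mice. Its values were 11.8, 16.4, 27.8, 16.9 and 16.8 CPM in control clodronate and 18.5, 27.6, 17.6, 20.5 and 22.7 CPM in wheel clodronate mice. The 4 groups overlapped, and the interaction, 0.70, had a 95% interval of −0.11 to 1.51.

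**Figure D3:**
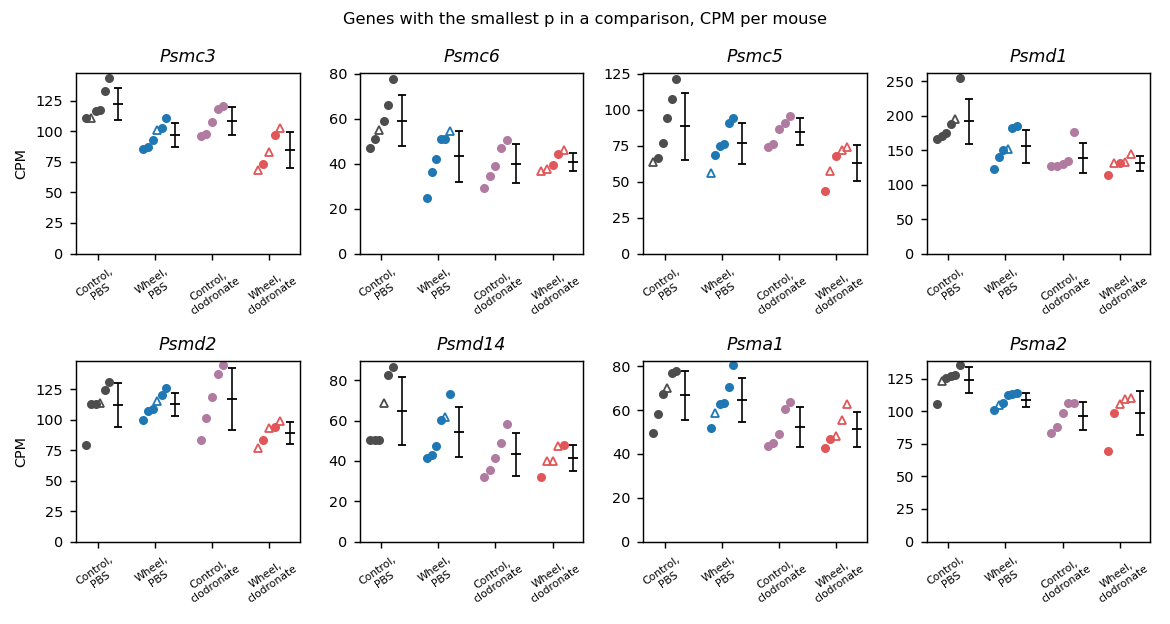
CPM per mouse of 8 genes with a small unadjusted p in at least 1 comparison, from 0 upward, with group mean and SD as bars and the 5 lymphocyte-rich mice as open triangles. Points are sorted by value within a group. Psmc3 is separated between wheel and control at PBS and Psmd2 between liposomes in wheel mice, while most other pairs of groups overlap.

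Taken as a mean over the 34 genes, each centred on its own mean over the 22 mice, the control PBS group stood highest, at 0.18 ± 0.17 on the log2 scale (SD, n = 6). Wheel PBS mice averaged −0.0055 ± 0.12 (SD, n = 6), control clodronate mice −0.065 ± 0.12 (SD, n = 5) and wheel clodronate mice −0.15 ± 0.13 (SD, n = 5). The median log2(CPM + 1) of all tested genes, averaged over the mice of a group, was also highest in control PBS, at 3.46. It was 3.35 in wheel PBS, 3.35 in control clodronate and 3.41 in wheel clodronate mice. Its part in the proteasome means was not tested. Single mice overlapped between all groups in the proteasome mean. Control PBS mice ran from −0.069 to 0.44 with a median of 0.17, and wheel PBS mice from −0.15 to 0.20 with a median of −0.018. The control clodronate mice were at −0.13, 0.13, −0.041, −0.16 and −0.13, and the wheel clodronate mice at −0.31, −0.23, 0.0015, −0.13 and −0.069. The sum over the 34 genes reached 3506 CPM in control PBS mouse 1 and fell to 2100 CPM in wheel clodronate mouse 1. The core and the cap gave the same order of groups, with 0.19, 0.0017, −0.11 and −0.13 for the core and 0.19, 0.0061, −0.051 and −0.18 for the cap. No p is given for these means, because the members are not replicates.

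The 3 mice with the highest proteasome means also had high levels of the 8 markers of dividing cells. Control PBS mouse 1, the highest, had a dividing-cell mean of 4.40 on the log2(CPM + 1) scale, and control PBS mouse 6 and wheel PBS mouse 4, the next in order, had 4.20 and 4.41. At the other end, wheel clodronate mice 1 and 2 had 2.41 and 2.21, and control clodronate mouse 4 had 1.34. Exceptions lay at either end. Control clodronate mouse 3 and wheel clodronate mouse 3 had dividing-cell means of 4.10 and 4.12 and proteasome means of −0.041 and 0.0015. Control PBS mouse 5 had the lowest dividing-cell mean of all mice, 1.32, with a proteasome mean of −0.069. Wheel PBS mice 6 and 2 had dividing-cell means of 1.85 and 2.31 and proteasome means of 0.016 and 0.00039. Wheel PBS mouse 1 and control clodronate mouse 1 were low in both, with 1.57 and 1.96 beside −0.15 and −0.13. In sum over the list, the dividing-cell markers had medians of 199 CPM in control PBS, 66.3 in wheel PBS, 105 in control clodronate and 106 in wheel clodronate mice, with ranges that overlapped (13.8 to 256, 17.4 to 275, 13.1 to 195 and 41.6 to 193). These values share their libraries and scaling, and whether the markers account for the proteasome means was not tested.

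**Figure D4:**
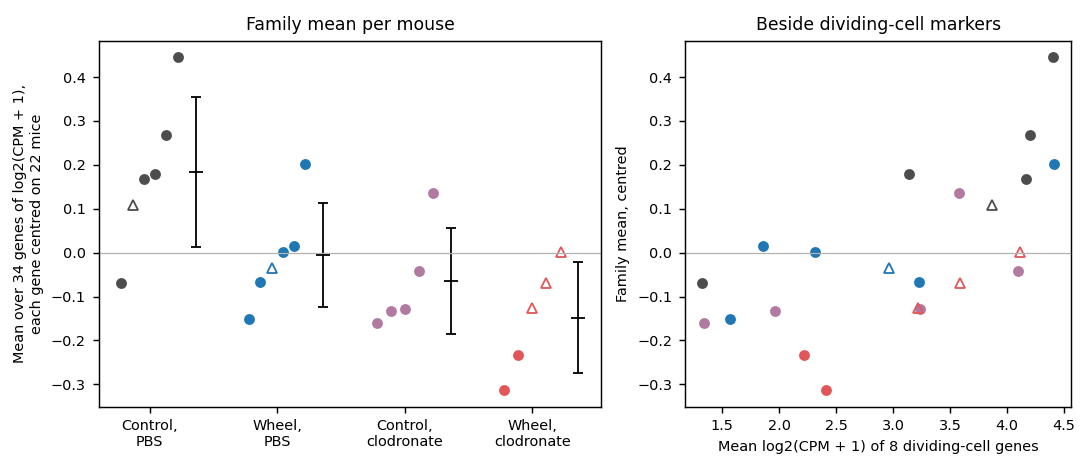
Left, mean of the 34 genes per mouse on the log2(CPM + 1) scale after centring each gene on its mean over 22 mice, by group, with group mean and SD as bars. Right, the same values against the mean of 8 dividing-cell markers. Open triangles are the lymphocyte-rich mice and colours are as at left. Control PBS mouse 1 is highest in the left panel (0.44), and mice with dividing-cell means above 4 lie mostly in the upper part of the right panel.

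With the group means removed, most pairs of members were positively correlated. The median Pearson r over their 561 pairs was 0.23 across the 22 mice and 78.6% of pairs were positive, against a median of 0.0087 and 51.2% over all pairs of tested genes. For comparison, the median was 0.99 among the skeletal muscle markers, 0.95 among the lymphocyte, 0.82 among the dividing-cell, 0.65 among the adipocyte and 0.52 among the macrophage markers, and 0.28 among the mammary epithelium (60.7% of pairs positive) and 0.11 among the 3 neutrophil markers. It was 0.26 within the core and 0.28 within the cap. Upper-quartile scaling lowered the members' median to 0.16. The genes most correlated with the rest were the ATPases Psmc2 (mean r 0.36) and Psmc4 (0.35) and the catalytic Psmb7 (0.35), and those least correlated were Psmd5 (−0.037), Psmb2 (0.042) and Psmb5 (0.051), which are all low in level. The points share libraries and scaling, and these are descriptions without a test.

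The catalytic subunits were then set beside their interferon-inducible counterparts. Psmb8 (mean 73.8 CPM) was more abundant than Psmb5, whereas Psmb9 (36.7 CPM) and Psmb10 (33.6 CPM) were below Psmb6 (75.2 CPM) and Psmb7 (48.0 CPM). The counterparts varied more: their SD was 0.67, 0.66 and 0.44 on the log2 scale, against 0.39 for Psmb5, 0.26 for Psmb6 and 0.36 for Psmb7. In the lymphocyte-rich mice Psmb8 was 68.0 to 155 CPM, against 26.3 to 98.7 CPM in the other 17, while Psmb5 was 10.2 to 19.8 CPM against 4.62 to 16.6 CPM. Psmb9 was 50.7 to 74.5 CPM against 12.5 to 54.2 CPM, and Psmb10 40.3 to 48.3 CPM against 15.0 to 42.1 CPM. These mice form a separate cluster in the lymphocyte markers and lay high in the counterparts, though the ranges overlapped. For that reason correlations were computed over the other 17. Unlike for the pairs of members, group means were not removed. Differences between groups therefore remain in r and rho, and the permutations moved mice across groups. Over 3 pairs, Psmb6 and Psmb9 had r = −0.60 (permutation p = 0.0100, adjusted 0.0301) and rho = −0.48 (permutation p = 0.0506, adjusted 0.152). Without the 2 mice farthest from the median of Psmb6, r was −0.40 (permutation p = 0.137, n = 15), and the call was lost. Leaving them out also narrows the range of Psmb6, so the weaker r cannot show whether the relation rests on them. With upper-quartile scaling the adjusted permutation p was 0.0652. Psmb5 with Psmb8 gave r = −0.24 (permutation p = 0.359, adjusted 0.359) and rho = −0.12 (permutation p = 0.654, adjusted 0.654), and r = −0.24 without its 2 farthest mice. Psmb7 with Psmb10 gave r = 0.31 (permutation p = 0.227, adjusted 0.340) and rho = 0.33 (permutation p = 0.200, adjusted 0.300), and r = 0.051 without its 2 farthest mice. The groups hold 5 or fewer of these mice each, too few for a correlation within a group.

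**Figure D5:**
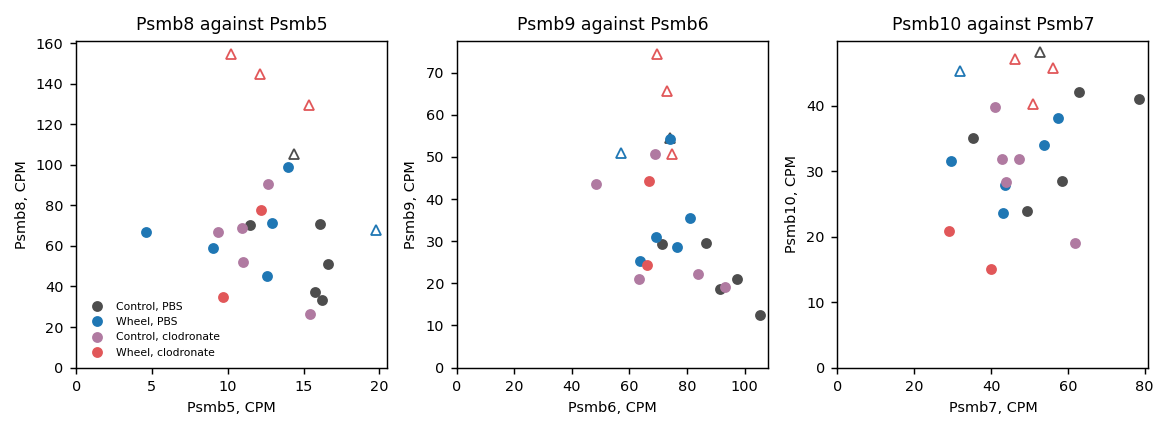
CPM of each inducible subunit against the constitutive subunit it replaces, 1 point per mouse, coloured by group, with the 5 lymphocyte-rich mice as open triangles. The triangles lie high for Psmb8, Psmb9 and Psmb10 but not to one side for Psmb5, Psmb6 and Psmb7.

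The log2 ratio of each inducible subunit to its counterpart was compared between groups in 12 exact permutation tests, a result added after the data were seen. None passed after adjustment. The smallest p was for Psmb9 over Psmb6 in PBS mice, where the ratio was −1.76 ± 0.89 (SD, n = 6) in control and −0.93 ± 0.50 (SD, n = 6) in wheel mice, a difference of 0.83 (exact two-sided permutation p = 0.0628, adjusted 0.540). Without the lymphocyte-rich mice this difference was 0.94 (exact permutation p = 0.0238, adjusted 0.286). With clodronate the same ratio differed by 0.72 between wheel and control (exact permutation p = 0.167, adjusted 0.540), and by 0.25 without the lymphocyte-rich mice. For Psmb8 over Psmb5 the wheel difference at clodronate was 0.74 (exact permutation p = 0.206, adjusted 0.540). It was −0.011 when those mice were left out. With so few mice this change cannot show what the difference rested on, and the part of those mice was not tested. The 2 wheel clodronate mice that remain allow no p below 0.0476.

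Other genes of the pathway were taken from lists of 41 symbols, of which 38 were found and tested, and 0 of 38 passed the adjusted threshold in any of the 7 comparisons. At an unadjusted p under 0.05, limma gave 1 higher and 2 lower for running at PBS, 3 and 1 for running at clodronate, 0 and 4 for clodronate in control mice, and 2 and 2 for clodronate in wheel mice. The shares of all genes at that limit, higher and lower, were 0.799% and 4.12%, 7.04% and 3.40%, 0.905% and 6.08%, and 6.08% and 5.54% in the same order. The medians of the 38 were −0.11, 0.0041, −0.098 and −0.020, closer to 0 than those of the members in each case, against −0.085, 0.0045, −0.10 and 0.00020 for all genes. Pomp, the chaperone that completes the core, was among them: it was lower with clodronate in control mice (−0.50, SE 0.15, unadjusted p = 0.00290, adjusted p = 0.438, limma) and with running at PBS (−0.34, SE 0.14). Nfe2l1, the activator of proteasome genes, was lower with running at clodronate (−0.49, SE 0.13, unadjusted p = 0.000807, adjusted p = 0.232) and close to 0 with running at PBS (0.05, SE 0.12). Psme2, part of the interferon-inducible activator cap, was lower with clodronate in control mice (−0.62, SE 0.25) and its interaction was 1.02 (SE 0.36, unadjusted p = 0.00879, adjusted p = 0.613). Rps27a, which encodes ubiquitin fused to a ribosomal protein, was lower with running at PBS (−0.59, SE 0.21) and higher with running at clodronate (0.82, SE 0.23, unadjusted p = 0.00198, adjusted p = 0.238). The immunoproteasome genes were 3 of the 38, and Psmb9 was higher with running at clodronate at an unadjusted p of 0.0473 (0.73, SE 0.35, adjusted p = 0.470, limma). Of the lymphocyte-rich mice, 3 were among the 5 wheel clodronate and 0 among the 5 control clodronate mice, and the mean log2 level of Psmb9 was 5.90 in the lymphocyte-rich mice and 4.86 in the other 17. The part of these mice in that difference was not tested.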

How the data were processed

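RNA from mammary tissue of 22 mice was sequenced with QuantSeq 3′ FWD, and per the submitters' processing notes reads were aligned with STAR 2.5.3a to GRCm38. The counting tool and its settings were not given in the sources used here. The authors deposited 1 table per mouse with a signal per gene symbol, read counts scaled to the whole library (CPM) in which values under 1 were set to 1, and 4 rows that name no gene (unmapped, multimapping, no feature, ambiguous reads). Those rows held the reads not assigned to genes (assigned, 57.2 to 64.5%) and were left out of the tests. Depth was 13256467 to 20484578 reads per library. Values above the floor were whole multiples of 1 read within 0.1 reads, but up to 13 to 20 reads are hidden by the floor, so no count test was run.

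Groups came from the labels. The labels number the mice in a single run across the groups, with gaps in both clodronate groups. Within each group the mice were renumbered here in the order of their labels. Genes above 1 CPM in at least 5 mice (15138) were tested with limma 3.58.1 (R 4.3.3, variance trend) on log2(CPM + 1), with 4 group means and Benjamini-Hochberg adjustment over all genes. Fold changes are on this scale and understate changes of low genes. The script was tested on simulated data. Correlations of catalytic subunits with their counterparts used 100000 permutations across groups, and ratios exact permutations (scipy 1.17.1). Alternatives were pseudocounts of 0.1, 5 and none, other filters, upper-quartile scaling, no variance trend, only the groups compared, a replicate block and leaving out each mouse; scaling to assigned reads and leaving out the lymphocyte-rich mice were added after seeing the data. The members, gene lists and rules were chosen with earlier results of these data known. Of the members, those described mouse by mouse were the 2 with the smallest unadjusted p in each comparison, the 3 catalytic subunits, the 2 most and 2 least abundant, and the 2 with the largest and the 2 with the smallest SD (17 genes). Other lists of markers, and their summed levels over the 22 mice, were neutrophil (5 genes, 5.00 to 17.8 CPM), mammary epithelium (216 to 3528 CPM) and adipocyte (8012 to 22343 CPM). One gene of the pathway lists is not reported here.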

Additional observations from a re-analysis of the deposited data

Results flagged for a closer look

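In 84 tests (21 measures in each of 4 groups), 5 single values stood apart from the other mice of their group by Dixon's test, where about 4.2 are due to chance. On the log2(CPM + 1) scale, Psma2 was lowest in wheel clodronate mouse 2 at 6.14 (69.3 CPM), beside 6.64 in the next mouse. Psmd1 was highest in control clodronate mouse 2 at 7.47 (177 CPM), beside 7.08. Psmd2 was lowest in control PBS mouse 5 at 6.32 (78.9 CPM), beside 6.83. Psmd10 was highest in control PBS mouse 3 at 4.47 (21.2 CPM), beside 4.09, and lowest in wheel PBS mouse 5 at 2.58 (4.98 CPM), beside 3.88. Wheel clodronate mouse 2 and control clodronate mouse 2 also had the highest mean levels of the 8 skeletal muscle markers, 10.2 and 11.3, whose part in these values was not tested.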

How the results depend on the processing

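The count of members past the adjusted threshold was 0 in all 7 comparisons under every alternative run with limma. Leaving out 1 mouse at a time gave a median of −0.25 to −0.15 for running at PBS, −0.098 to −0.014 for running at clodronate, −0.31 to −0.18 for clodronate in control mice and −0.21 to −0.10 for clodronate in wheel mice. The medians changed sign for running at clodronate (0.015 when scaled to assigned reads) and for the interaction (−0.038 with upper quartiles). Upper-quartile scaling moved the median of all genes from −0.10 to −0.0069 for clodronate in control mice and from −0.085 to −0.0012 for running at PBS, the cause of which was not tested. Among 503 alternatives for 20 differences (the 2 members of smallest p in each comparison, and the catalytic subunits for running at PBS and for clodronate in control mice), 0 reversed and 0 passed the threshold. Outside those 20, some differences near 0 changed sign with upper quartiles, among them those of Psmb6, to −0.014 for running at clodronate and −0.00057 for clodronate in wheel mice. The correlation of Psmb6 with Psmb9 lost its call with upper-quartile scaling (−0.55) and without the 2 farthest mice (−0.40). Without the lymphocyte-rich mice the log2 ratios reversed for Psmb8 over Psmb5, wheel against control at clodronate (−0.011) and clodronate against PBS in wheel mice (−0.45), and for Psmb10 over Psmb7, wheel against control at clodronate (−0.25) and clodronate against PBS in control mice (0.051). Symbols at the floor in every mouse were left out where no filter was set (19169 tested). The count of all genes lower with clodronate, averaged over activity, was 31 and moved to 12 with upper quartiles, 15 when scaled to assigned reads, 19 with no variance trend, 54 with a mean of at least 5 CPM and 0 without the lymphocyte-rich mice. Without single mice it ran from 9 (control clodronate mouse 3) to 141 (control clodronate mouse 1). It was 67 without control PBS mouse 4, 19 without wheel clodronate mouse 2, 15 without control PBS mouse 3, 14 without control PBS mouse 1 or wheel clodronate mouse 3, and 12 without control clodronate mouse 2.

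Same-numbered mice share only their place in the order of labels within a group, and the labels give no pairing. The correlation of their deviations averaged −0.075 to 0.18 per comparison, with single pairs from −0.39 to 0.52 and negative pairs in each comparison. In both clodronate groups a gap in the labels precedes mouse 5, so it may not correspond to mouse 5 of the PBS groups. For clodronate in wheel mice that pair was the only negative one. The check, and the replicate block with the same numbers, therefore cannot exclude a shared order. The numbers are used here only to name mice. With the replicate block, 0 members passed, the median for clodronate averaged over activity was −0.17, and the count of all genes lower there was 11.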
